A study of Mus musculus with 9 samples.

Results

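The transcripts of the mouse mitochondrial genome were followed in cultured tumour cells exposed to a photodynamic nanoparticle, with and without light. All genes that the count tables place on chromosome MT were taken, which gave 37 of the 55416 genes: 13 protein-coding genes (mRNAs), 2 rRNA genes and 22 tRNA genes. The cells were 4T1, an established line grown from a mammary tumour of a BALB/c mouse, and the series concerns particles that combine photodynamic and immune effects to provoke pyroptosis. The PBS group was left untreated in DMEM medium, the MRC group received MRC nanoparticles for 12 h, and the MRC+L group received the same particles for 12 h and 660 nm laser light for 3 min at 180 mW/cm2. What the letters MRC stand for is not said in the labels, and 1 of their texts gives the irradiance in mV. There were 9 libraries, 3 per group, and light without particles is not analysed here. The labels do not state that libraries of a group came from separate cultures, so p-values here rest on a spread between libraries that could be technical.

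Mitochondrial DNA is copied into RNA by a dedicated polymerase, POLRMT, with the help of TFAM and TFB2M, and both strands are read as long precursors. Most mRNAs and the rRNAs are separated when enzymes cut out the tRNAs that lie between them. The mRNAs encode core subunits of respiratory complexes I, III and IV and of the ATP synthase, complex V, whose other subunits come from nuclear genes, and the rRNAs build the mitochondrial ribosome.

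Some of these genes have near-perfect copies in the nuclear genome, and reads that fall in the shared sequence have more than 1 possible origin. The copies lie side by side on the minus strand of chromosome 1 (GRCm39, chr1:24650616-24655278, from the count tables). Over the aligned bases mt-Co2, mt-Atp6, mt-Co3 and mt-Nd4l were 100% identical to their copies, as was mt-Nd4 over its first 876 bases. The first 60 bases of mt-Co2 (chrMT:7013-7696, plus strand, GRCm39) and of its copy Gm28661 are shown because they are the same letter for letter. Those of mt-Nd3 (chrMT:9459-9806, plus strand) and Gm28438 carry the only mismatch of that pair, T3C, and bases 1063 to 1122 of mt-Co1 (chrMT:5328-6872, plus strand) and bases 10 to 69 of Gm29216 carry the only one of theirs, A1066T. Positions count from 1 at the first base of the mitochondrial gene, with its base first and that of the copy last. Capitals mark the mismatch. Sequences are from GENCODE M21 transcripts (GRCm38) and are written 5′ to 3′ on the strand of the gene.
mt-Co2: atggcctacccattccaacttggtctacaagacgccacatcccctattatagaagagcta
Gm28661: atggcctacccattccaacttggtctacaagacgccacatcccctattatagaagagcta
mt-Nd3: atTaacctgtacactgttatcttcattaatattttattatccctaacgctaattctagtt
Gm28438: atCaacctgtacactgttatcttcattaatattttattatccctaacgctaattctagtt
mt-Co1: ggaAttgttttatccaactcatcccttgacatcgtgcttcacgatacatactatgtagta
Gm29216: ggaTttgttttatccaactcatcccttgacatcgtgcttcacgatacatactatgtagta

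Every run of 50 bases in mt-Co2 also occurred in another annotated transcript. The share of such runs was 99.5% in mt-Atp6, 99.9% in mt-Co3, 98.8% in mt-Nd4l and 98.0% in mt-Nd3. It was 62.2% in mt-Nd4 and 51.1% in mt-Co1, at most 8.19% in mt-Nd2, mt-Nd5 and mt-Rnr2, and 0 in mt-Nd1, mt-Nd6, mt-Cytb, mt-Rnr1 and all 22 tRNAs. The file headers give no option to count reads with several places. The counts of the first 5 genes are thus only the part of their reads that could be placed. The same holds for the shared parts of mt-Nd4 and mt-Co1. Only annotated transcripts were searched, so the stretches between the copies, where mt-Atp8 and some tRNA genes lie, were not covered. The strand of a read was not used either, so reads from a gene and from transcripts of the opposite strand over the same bases cannot be told apart.

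The tRNA genes are short, and 4 of them are shown because the tRNA results turn on them: mt-Th (histidine, chrMT:11546-11612, plus strand) and mt-Ts2 (serine, chrMT:11613-11671, plus strand), which passed the test below, mt-Tp (proline, chrMT:15356-15422, minus strand), which had the highest count of any tRNA gene in a single library, and mt-Tc (cysteine, chrMT:5192-5257, minus strand), the only tested tRNA whose MRC libraries all lay above the PBS libraries. By that last measure 24.1% of all genes tested lay above PBS in MRC, a larger share than 1 of the 10 tested tRNAs. Capitals mark the anticodon.
mt-Th: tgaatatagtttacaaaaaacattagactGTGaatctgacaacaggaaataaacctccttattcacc
mt-Ts2: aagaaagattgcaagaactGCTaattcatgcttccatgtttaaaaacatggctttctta
mt-Tp: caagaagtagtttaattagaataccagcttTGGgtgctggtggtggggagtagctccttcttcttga
mt-Tc: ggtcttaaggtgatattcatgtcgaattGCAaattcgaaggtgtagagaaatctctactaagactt

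Library totals lay between 15019765 and 20044166 counts. PBS replicate 2 stood apart from the other 8 libraries: its short genes lay higher relative to its long genes, with a difference of 0.98 on the log2 scale against -0.29 to 0.11 elsewhere. Values without it follow those with it for many of the genes that it moved most. Of 7 epithelial markers 5 reached 10 counts, and their sum lay between 973 and 1733 CPM (counts scaled to the library size) in PBS, 544 and 577 in MRC and 485 and 502 in MRC+L. Epcam and Cldn7, which usually mark epithelium, had group means of at most 0.237 CPM. Of 6 leukocyte markers 2 were at 0 in every library and their sum was at most 0.38 CPM. The summed level of 5 fibroblast markers was 30.7 to 59.3 CPM in PBS, 71.0 to 86.7 in MRC and 68.9 to 77.5 in MRC+L, and that of 4 endothelial markers lay between 3.35 and 7.41 CPM over all libraries. Each sum rested on few genes. The epithelial one was nearly all Krt8 (717 ± 172 CPM in PBS, 352 ± 18.2 in MRC and 310.5 ± 5.33 in MRC+L) and Krt18 (577 ± 219, 201 ± 3.97 and 175 ± 6.12), which fell in both exposed groups, while Krt14 rose from 0.255 ± 0.154 to 1.79 ± 0.166 and 1.43 ± 0.0358 CPM. The fibroblast one was nearly all Pdgfra, which rose from 44.2 ± 13.99 to 77.1 ± 7.61 and 71.8 ± 4.72 CPM, with Col1a1 at group means of at most 1.38 CPM and not called and Dcn and Lum at most 0.0420. In the endothelial one Cdh5 led and was not called, and Pecam1 rose from 0.150 ± 0.0508 to 0.590 ± 0.331 and 0.665 ± 0.180 CPM. The part of these genes in the results was not tested. In RNA from whole cultures, fewer cells of a type and less RNA per cell cannot be told apart.

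In untreated cells, levels per length (RPKM, the CPM per kilobase of exon) differed widely among the genes. mt-Co1, the catalytic core of complex IV, stood at 6509 ± 165 RPKM (mean ± SD, n = 3 libraries throughout). It was followed by mt-Cytb, the cytochrome b of complex III, at 3869 ± 241, mt-Nd1 at 3011 ± 439 and mt-Nd2 at 2301 ± 241. Each of these lay below the one before it in every PBS library. mt-Nd6 at 1679 ± 1215, mt-Nd5 at 1437 ± 472 and mt-Nd4 at 1239 ± 374 RPKM overlapped, so their order is not resolved. The counts of mt-Co1 and mt-Nd4 were divided by full length, although 51.1% and 62.2% of their runs of 50 bases were shared. Their levels hold only reads that could be placed and are uncertain. The rRNA genes were far lower in these libraries. mt-Rnr2, the large rRNA, stood at 290 ± 110 RPKM and mt-Rnr1, the small rRNA, at 100.4 ± 41.9. mt-Nd3, at 88.8 ± 63.6, overlapped mt-Rnr1. The genes with copies on chromosome 1 that share nearly all their sequence followed, from mt-Nd4l at 24.7 ± 14.97 and mt-Atp6 at 11.3 ± 4.56 to mt-Co2 at 6.75 ± 2.60 and mt-Co3 at 4.20 ± 1.27 RPKM, where neighbours overlapped. mt-Atp8, the small ATP synthase subunit whose reading frame runs into that of mt-Atp6, had 0 to 2 counts per library and was not tested. The labels do not state how RNA was selected, so levels of rRNA and mRNA in the cells cannot be compared from these values.

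After MRC nanoparticles the share of counts from mitochondrial mRNAs was lower, and it was lower again with light. The 13 mRNAs took 2.57%, 2.65% and 2.28% of all counts in the PBS libraries, 1.77%, 1.65% and 1.95% in MRC, and 1.53%, 1.48% and 1.46% in MRC+L. No group overlapped another. The mean share was 2.50 ± 0.194% in PBS, 1.79 ± 0.152% in MRC and 1.49 ± 0.0331% in MRC+L, 1.39-fold lower in MRC than in PBS, 1.68-fold lower in MRC+L than in PBS and 1.20-fold lower in MRC+L than in MRC. The exact two-sided permutation test gave p = 0.10 for each of these comparisons, the smallest value that 3 against 3 libraries allow. The 95% Wilson half-width of a library's share was at most 0.00751 percentage points, which covers counting error only.

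The rRNA share went the other way against PBS, and the tRNA share was lower than in PBS in MRC+L. The 2 rRNAs took 0.0719%, 0.0400% and 0.0552% of counts in PBS, 0.176%, 0.0963% and 0.102% in MRC, and 0.0779%, 0.0891% and 0.0957% in MRC+L. Both exposed groups lay above PBS, and the lowest MRC library lay just above the highest MRC+L library. The 22 tRNAs together took 0.00419 ± 0.00102% of counts in PBS, 0.00387 ± 0.000691% in MRC and 0.00331 ± 0.000088% in MRC+L, with MRC+L wholly below PBS and MRC overlapping it.

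**Figure D1:**
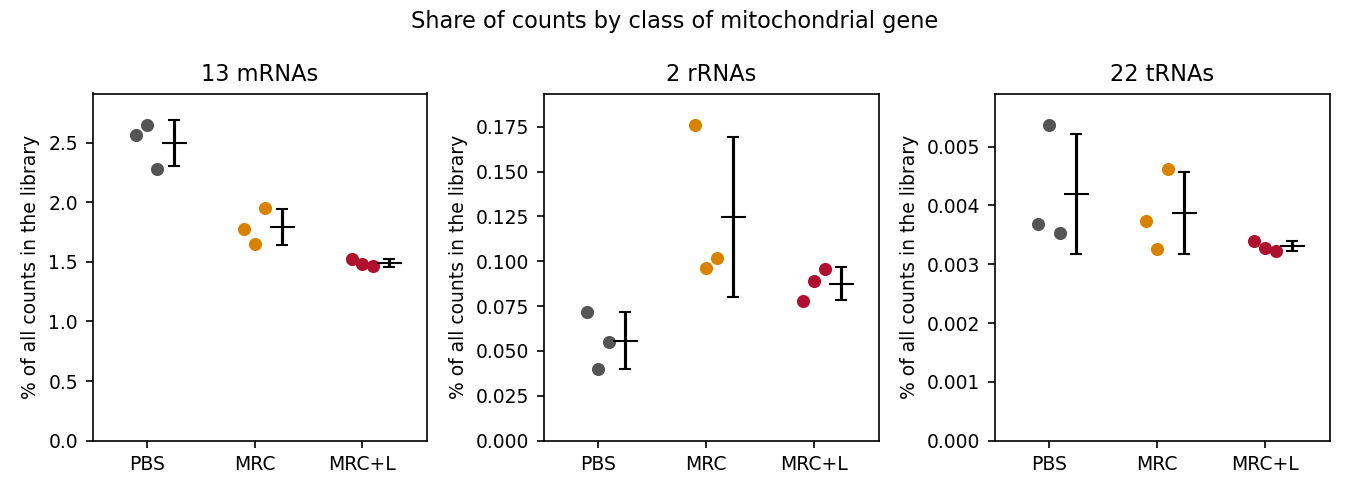
Share of all counts in each library, in percent, for the 13 mRNAs, 2 rRNAs and 22 tRNAs of the mitochondrial genome, with 1 point per library and the mean ± SD (n = 3) in black; each panel has its own scale from 0. The mRNA shares of the 3 groups do not overlap, and MRC replicate 1 has the highest rRNA share, at 0.176%.

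The first comparison, MRC against PBS, concerns the particles without light. Of the 13 mRNAs 12 passed the filter on low counts, and 8 fell while 0 rose (edgeR quasi-likelihood test, adjusted p under 0.05 over 13439 genes), or 0 and 0 when libraries were scaled to the sum of the mRNAs themselves. Of all genes tested 37.6% were called, namely 19.8% as lower and 17.8% as higher. The median log2 fold change of the 12 mRNAs was -0.71, against -0.03 for all genes tested. Without PBS replicate 2 the median was -0.42 and 9 mRNAs fell, beside 26.0% of all genes. The count was less steady when other libraries were left out: 4 without PBS replicate 1, 2 without MRC replicate 1, 1 without MRC replicate 2, 5 without MRC replicate 3, and 4, 5 and 4 without MRC+L replicates 1, 2 and 3, which enter the shared estimate of the spread. In those fits, in the same order, 16%, 13.6%, 14.7%, 15.3%, 17.5%, 17.4% and 17.6% of all genes fell. The count without MRC replicate 1 was thus near that background, and the count without MRC replicate 2 under it.

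The comparison of MRC+L with PBS adds the light and shares the PBS libraries with the first, so the values stand side by side and are not independent. All 12 tested mRNAs fell (3 fell and mt-Co1 rose when libraries were scaled to the sum of the mRNAs), with a median log2 fold change of -1.12 against -0.03 for all genes tested. The background was larger too: 46.2% of all genes tested were called, 24.5% as lower and 21.8% as higher. Without PBS replicate 2 the median was -0.89 and again 12 fell, beside 28.3% of all genes. Leaving out any 1 library gave 9 to 12, beside 17.9% to 28.3% of all genes.

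**Figure D2:**
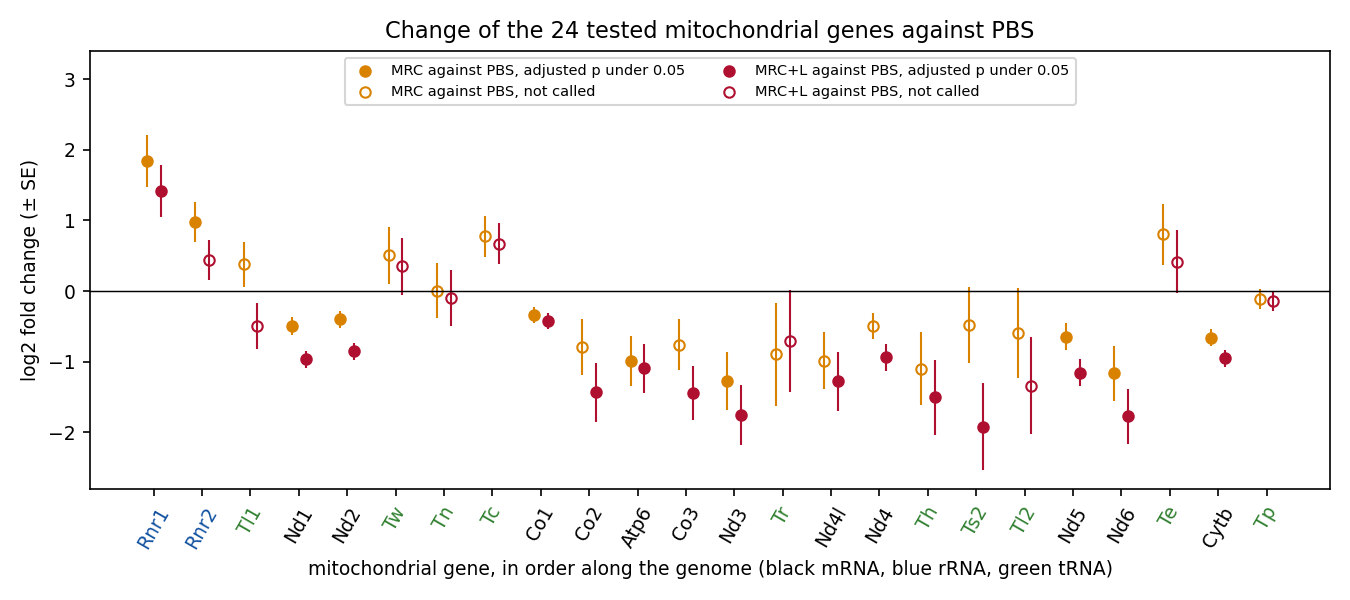
Log2 fold change against PBS (± SE, edgeR) of the 24 tested mitochondrial genes in their order along the genome, on the TMM scale, for MRC (orange) and MRC+L (red); filled symbols have an adjusted p under 0.05. The 2 rRNAs at the left lie above 0 and all 12 mRNAs below it, with mt-Rnr1 at 1.84 in MRC and mt-Nd6 at -1.77 in MRC+L.

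Among the complex I genes, which encode membrane-arm subunits of NADH dehydrogenase, mt-Nd1 and mt-Nd2 separated all 3 groups. mt-Nd1 had 3299, 2886 and 2459 CPM in the PBS libraries, 2055, 1903 and 2166 in MRC and 1502, 1471 and 1445 in MRC+L. mt-Nd1 fell in MRC (log2 fold change ± SE -0.50 ± 0.13, adjusted p = 0.0114) and in MRC+L (-0.97 ± 0.13, adjusted p = 0.000214), which is 1.41-fold and 1.96-fold lower than PBS. mt-Nd2 had 2624, 2417 and 2125 CPM in the PBS libraries, 1803, 1665 and 1956 in MRC and 1320, 1345 and 1301 in MRC+L. It fell in MRC (-0.40 ± 0.12, adjusted p = 0.0212) and in MRC+L (-0.85 ± 0.12, adjusted p = 0.000284). With any 1 library left out, the MRC+L calls of both genes held in 9 of 9 fits, while the MRC call of mt-Nd1 was lost without PBS replicate 1 or MRC replicate 2 (adjusted p = 0.0501 and 0.0525) and that of mt-Nd2 without PBS replicate 1 or MRC replicate 1 or 2 (adjusted p = 0.0854, 0.0718 and 0.0861). With the trend on gene length removed, the MRC log2 fold changes were -0.31 for mt-Nd1 (adjusted p = 0.129) and -0.21 for mt-Nd2 (adjusted p = 0.272), neither called.

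mt-Nd5, the longest of the mRNAs, had 2281, 3600 and 1981 CPM in the PBS libraries, 1595, 1660 and 1770 in MRC and 1203, 1175 and 1156 in MRC+L. PBS replicate 2 was the highest of all libraries, yet the lowest PBS library still lay above every exposed one. mt-Nd5 fell in MRC (-0.65 ± 0.19, adjusted p = 0.0248) and in MRC+L (-1.15 ± 0.20, adjusted p = 0.00103). Its log2 fold changes without PBS replicate 2 were -0.35 (adjusted p = 0.00114) and -0.86 (adjusted p = 1.9e-08), and the MRC call was lost without any 1 of the MRC libraries (adjusted p up to 0.0903). mt-Nd4, another antiporter-like subunit, had 1671, 2240 and 1212 CPM in the PBS libraries, 1256, 1111 and 1269 in MRC and 861, 884 and 931 in MRC+L. Its lowest PBS library lay within the MRC libraries and above the MRC+L libraries. The log2 fold change of mt-Nd4 was -0.49 ± 0.19 (adjusted p = 0.0643) in MRC, which did not pass, and -0.94 ± 0.19 (adjusted p = 0.00297) in MRC+L, which did. In MRC it was smaller but called without PBS replicate 2, at -0.26 (adjusted p = 0.0452), larger and called without PBS replicate 3, at -0.69 (adjusted p = 0.00243), and called by DESeq2 (adjusted p = 0.0388). In MRC+L it was -0.69 (adjusted p = 8.69e-06) without PBS replicate 2.

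mt-Nd6 is the only mRNA encoded on the opposite strand. It had 593, 1594 and 428 CPM in the PBS libraries, 409, 343 and 417 in MRC and 260.5, 249 and 255 in MRC+L. PBS replicate 2 held more than any other library, and the 3 groups did not overlap. mt-Nd6 fell in MRC (-1.16 ± 0.39, adjusted p = 0.0389) and in MRC+L (-1.77 ± 0.40, adjusted p = 0.00479). Without PBS replicate 2 its log2 fold changes shrank to -0.40 (adjusted p = 0.0043) and -1.004 (adjusted p = 1.09e-07). The MRC+L call held with any 1 library left out, and the MRC call in 3 of 9 such fits: it was lost without any 1 of the MRC libraries (adjusted p = 0.1001, 0.1248 and 0.0853) or of the MRC+L libraries (0.0593 to 0.0597).

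The short complex I genes mt-Nd3 and mt-Nd4l had few counts and nearly complete copies on chromosome 1. mt-Nd3 had 17.6, 56.5 and 18.6 CPM in the PBS libraries, 13.8, 9.42 and 15.1 in MRC and 10.4, 7.42 and 9.57 in MRC+L. Every PBS library lay above the exposed ones. mt-Nd3 fell in MRC (-1.27 ± 0.41, adjusted p = 0.0346) and in MRC+L (-1.76 ± 0.42, adjusted p = 0.00721), and without PBS replicate 2 the log2 fold changes were -0.51 (adjusted p = 0.0176) and -0.99 (adjusted p = 6.92e-05). The MRC+L call held with any 1 library left out, and the MRC call in 4 of 9 such fits, being lost without any 1 of the MRC libraries (adjusted p up to 0.1253) or without MRC+L replicate 1 or 3 (0.0517 and 0.0526). mt-Nd4l, which overlaps the start of mt-Nd4, had 5.06, 12.4 and 4.48 CPM in the PBS libraries, 3.73, 3.14 and 4.21 in MRC and 2.75, 1.94 and 4.31 in MRC+L. PBS lay above both exposed groups, but the log2 fold change in MRC, -0.98 ± 0.41 (adjusted p = 0.0814), did not pass, and that in MRC+L, -1.28 ± 0.41 (adjusted p = 0.0286), did. Leaving out PBS replicate 2 gave -0.37 (adjusted p = 0.262) and -0.66 (adjusted p = 0.0473), and in MRC DESeq2 called the gene (adjusted p = 0.0486). The MRC+L call was lost without MRC+L replicate 1 or 2 (adjusted p = 0.0872 and 0.103).

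mt-Cytb is the only mitochondrial gene of complex III, and none of its runs of 50 bases occurred in another annotated transcript. It was the steadiest of the mRNAs called in MRC. It had 4567, 4602 and 4108 CPM in the PBS libraries, 2731, 2517 and 3168 in MRC and 2224, 2391 and 2268 in MRC+L. The 3 groups were separate. mt-Cytb fell in MRC (-0.66 ± 0.12, adjusted p = 0.00194) and in MRC+L (-0.95 ± 0.12, adjusted p = 0.000175), and it stayed called in both with any 1 of the 9 libraries left out.

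The complex IV genes differed greatly in depth. mt-Co1 had 10350, 9870 and 9952 CPM in the PBS libraries, 8055, 7101 and 8607 in MRC and 7779, 7333 and 7353 in MRC+L. PBS lay above both exposed groups, which overlapped each other. mt-Co1 fell in MRC (-0.34 ± 0.11, adjusted p = 0.037) and in MRC+L (-0.43 ± 0.11, adjusted p = 0.0122), the smallest changes among the 12 mRNAs in either comparison. The call in MRC was lost without PBS replicate 1, MRC replicate 1 or 2, or any of the MRC+L libraries (adjusted p up to 0.137), and that in MRC+L without MRC+L replicate 2 or 3 (adjusted p up to 0.0566). With the trend on gene length removed neither was called (log2 fold change -0.16, adjusted p = 0.393, and -0.17, adjusted p = 0.366).

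The other complex IV subunits, encoded by mt-Co2 and mt-Co3, were measured with at most 113 counts in a library. mt-Co2 had 3.91, 6.64 and 3.29 CPM in the PBS libraries, 2.28, 1.40 and 4.26 in MRC and 1.83, 1.94 and 1.36 in MRC+L. MRC overlapped PBS and MRC+L did not. Its log2 fold change was -0.79 ± 0.40 (adjusted p = 0.147) in MRC and -1.43 ± 0.42 (adjusted p = 0.0185) in MRC+L, so that mt-Co2 fell only by the second test; the difference between MRC+L and MRC did not pass (adjusted p = 0.988). mt-Co3 had 2.97, 4.41 and 2.49 CPM in the PBS libraries, 1.96, 1.05 and 2.77 in MRC and 1.13, 1.00 and 1.48 in MRC+L. The pattern was that of mt-Co2, with -0.76 ± 0.36 (adjusted p = 0.126) in MRC and -1.44 ± 0.38 (adjusted p = 0.0118) in MRC+L. With PBS replicate 2 left out, mt-Co2 stood at -0.43 (adjusted p = 0.308) in MRC and -1.08 (adjusted p = 0.0158) in MRC+L, and mt-Co3 at -0.50 (adjusted p = 0.266) and -1.18 (adjusted p = 0.0129).

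Of the ATP synthase genes only mt-Atp6, the proton channel subunit, was tested. It had 7.72, 10.8 and 4.54 CPM in the PBS libraries, 4.49, 2.21 and 4.86 in MRC and 3.02, 3.81 and 3.96 in MRC+L. MRC overlapped PBS at its upper end, and MRC+L lay below PBS. mt-Atp6 fell in MRC (-0.99 ± 0.35, adjusted p = 0.0475) and in MRC+L (-1.10 ± 0.35, adjusted p = 0.0279). Its MRC call lay at the threshold and held in 2 of the 9 fits with 1 library left out, and that in MRC+L in 5 of 9. Without PBS replicate 2 the log2 fold changes were -0.68 (adjusted p = 0.0499) and -0.78 (adjusted p = 0.0245).

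**Figure D3:**
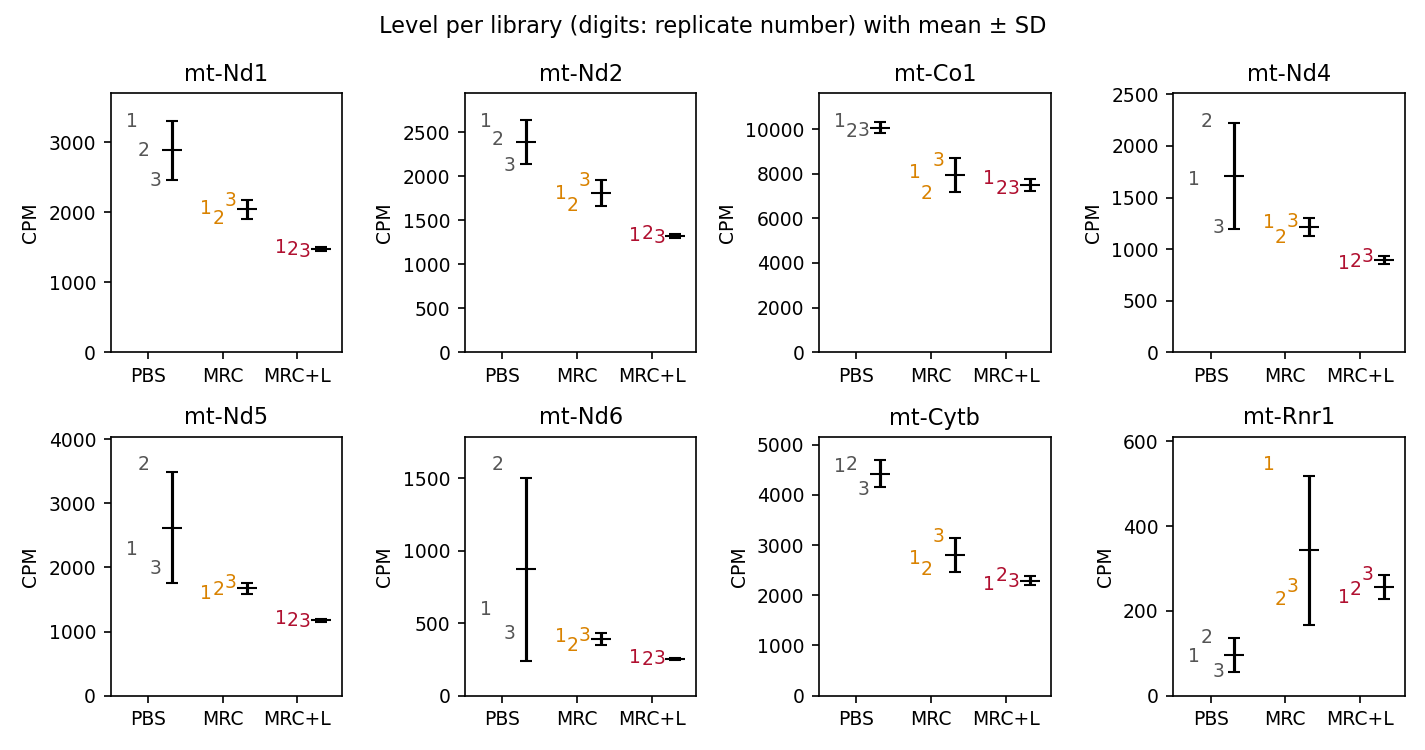
Levels in CPM (TMM-scaled, linear axes from 0) of 7 mRNAs and mt-Rnr1 in each library, printed as its replicate number, with the group mean ± SD (n = 3) in black. PBS replicate 2 stands high for mt-Nd4, mt-Nd5 and mt-Nd6 and not for mt-Nd1, mt-Nd2, mt-Co1 or mt-Cytb, and MRC replicate 1 stands high for mt-Rnr1.

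Both rRNAs rose in MRC, against the direction of the mRNAs. mt-Rnr1, the 12S rRNA of the small ribosomal subunit, had 92.1, 138 and 57.8 CPM in the PBS libraries, 545, 227 and 258 in MRC and 231, 251 and 287 in MRC+L. Every exposed library lay above every PBS library, and MRC replicate 1 was highest. mt-Rnr1 rose in MRC (1.84 ± 0.37, adjusted p = 0.00331, 3.58-fold) and in MRC+L (1.42 ± 0.36, adjusted p = 0.00994, 2.67-fold), and kept both calls with any 1 of the 9 libraries left out, at 2.18 (adjusted p = 6.79e-07) and 1.77 (adjusted p = 6.83e-06) without PBS replicate 2.

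mt-Rnr2, the 16S rRNA of the large subunit, had 620.3, 275 and 483 CPM in the PBS libraries, 1234, 726 and 753 in MRC and 544, 644 and 678 in MRC+L. PBS replicate 2 was lowest here, and MRC lay above PBS while MRC+L overlapped it. mt-Rnr2 rose in MRC (0.98 ± 0.29, adjusted p = 0.0232, 1.97-fold), a call lost without MRC replicate 1 (adjusted p = 0.107). In MRC+L its log2 fold change was 0.44 ± 0.29 (adjusted p = 0.234) and did not pass. Without PBS replicate 2 the values were 0.71 (adjusted p = 0.00121) and 0.17 (adjusted p = 0.382).

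Within a library the ratio of rRNA to mRNA counts does not depend on the scaling between libraries. It was 2.80, 1.51 and 2.43 rRNA counts per 100 mRNA counts in PBS, 9.92, 5.84 and 5.21 in MRC, and 5.11, 6.02 and 6.55 in MRC+L. Every exposed library lay above every PBS library. The ratio was 3.09-fold higher in MRC and 2.70-fold higher in MRC+L than in PBS (exact permutation test on log2 ratios, two-sided p = 0.10 each, 0.24 after Benjamini-Hochberg adjustment over 12 ratio comparisons). MRC+L and MRC overlapped (exact permutation p = 0.80). Libraries of polyadenylated RNA and of total RNA differ in how much rRNA they hold, and the labels name only a TruSeq RNA kit. Of 5 nuclear RNAs without a poly(A) tail that had an entry, 4 were at 0 in all libraries and the fifth reached at most 0.24 CPM, and a part of RNA selection in the rRNA result was not tested.

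The ratio of mt-Rnr1 to mt-Rnr2 varied most within PBS. It was 14.9, 50.1 and 12.0 per 100 in PBS, 44.2, 31.2 and 34.2 in MRC, and 42.5, 38.9 and 42.2 in MRC+L. PBS replicate 2 alone lay above all exposed libraries, and the other PBS libraries lay below all of them. The log2 difference was 0.80 in MRC and 0.99 in MRC+L against PBS (exact permutation p = 0.40 each, adjusted 0.533), and 1.44 and 1.63 without PBS replicate 2.

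The tRNAs gave few counts. Of the 22 genes 10 passed the filter, and 7 had some counts but at most 14 in a library. The other 5 (mt-Tf, mt-Ts1, mt-Td, mt-Tk and mt-Tg) had no count in any library, which allows up to 0.150 to 0.200 CPM by library. Among these, mt-Ts1, mt-Td, mt-Tk and mt-Tg lie between genes with copies on chromosome 1, in stretches not searched for copies. If their reads had several places, the limit covers only reads that could be placed. In MRC 0 of 10 tested tRNAs were called (1 at an unadjusted p under 0.05, and 1, higher, by DESeq2), with a median log2 fold change of -0.06. In MRC+L 2 of 10 fell and 0 rose against PBS, with a median of -0.32, a share of lower calls under the 24.5% of all genes tested.

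mt-Th had 4.59, 20.3 and 5.10 CPM in the PBS libraries, 4.43, 3.31 and 6.14 in MRC and 3.88, 3.74 and 2.90 in MRC+L, from 345 counts in PBS replicate 2 and 49 to 124 in the other libraries. That one library lay far above the rest. mt-Th fell in MRC+L (-1.50 ± 0.53, adjusted p = 0.0405), but without PBS replicate 2 its log2 fold change was -0.46 (adjusted p = 0.13). mt-Ts2, its neighbour along the genome, had 0.939, 2.64 and 0.995 CPM in the PBS libraries, 0.569, 0.698 and 1.93 in MRC and 0.378, 0.401 and 0.414 in MRC+L. All MRC+L libraries lay below all others. mt-Ts2 fell in MRC+L (-1.92 ± 0.61, adjusted p = 0.0268), and without PBS replicate 2 its log2 fold change was -1.27 (adjusted p = 0.0724). The call of mt-Th held in 2 and that of mt-Ts2 in 5 of the 9 fits with 1 library left out. mt-Tc had 2.29, 3.11 and 3.48 CPM in the PBS libraries, 5.95, 4.13 and 5.10 in MRC and 5.93, 5.21 and 2.96 in MRC+L, with a log2 fold change of 0.77 ± 0.29 (adjusted p = 0.0577) in MRC and, without PBS replicate 2, of 0.81 (adjusted p = 0.0244), and mt-Tp, the best measured, lay between 14.42 and 19.98 CPM in all 9 libraries, with log2 fold changes of -0.12 and -0.15 against PBS, neither called.

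The comparison of MRC+L with MRC concerns the light. With all 9 libraries in the fit edgeR called 0 of 13439 genes (0%, with 4.26% at an unadjusted p under 0.05). DESeq2 on the same libraries called 25 genes (0.186%), among them mt-Nd2 (adjusted p = 0.0327). By libraries alone, 6 of 12 mRNAs lay lower in every MRC+L library than in every MRC library, against 12.6% of all genes tested: mt-Nd1, mt-Nd2, mt-Nd4, mt-Nd5, mt-Nd6 and mt-Cytb. The median log2 fold change of the 12 mRNAs was -0.46, against -0.01 for all genes tested, and 5 had an unadjusted p under 0.05.

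In a fit to the 6 exposed libraries alone, where PBS does not enter the estimate of the spread, 5.05% of 12955 genes were called, 1.91% as lower and 3.13% as higher. There 6 of 12 mRNAs fell and 0 rose. mt-Nd6 had a log2 fold change of -0.61 ± 0.07 (adjusted p = 1.44e-05), mt-Nd5 of -0.50 ± 0.06 (adjusted p = 4.68e-05) and mt-Nd1 of -0.47 ± 0.06 (adjusted p = 0.000157). mt-Nd2 had -0.45 ± 0.07 (adjusted p = 0.000353), mt-Nd4 -0.44 ± 0.07 (adjusted p = 0.000413) and mt-Cytb -0.29 ± 0.07 (adjusted p = 0.0273). mt-Co1, the most abundant, had -0.08 ± 0.07 (adjusted p = 0.552) and did not pass. mt-Rnr2 fell (-0.53 ± 0.13, adjusted p = 0.0173), whereas mt-Rnr1 (-0.41 ± 0.18, adjusted p = 0.198) and all 9 tested tRNAs were not called. With all groups but without PBS replicate 2, 5 mRNAs fell with light, beside 0.335% of all genes: mt-Nd1, mt-Nd2, mt-Nd4, mt-Nd5 and mt-Nd6. mt-Cytb had an adjusted p of 0.105 there.

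The make-up of the mRNA pool differed in one direction for mt-Co1. It was 40.7%, 36.1% and 44.6% of the mitochondrial mRNA counts in PBS, 44.9%, 43.5% and 44.4% in MRC, and 51.3%, 49.3% and 49.9% in MRC+L. The MRC+L libraries lay above all others. Scaled to the summed mitochondrial mRNA counts, mt-Co1 rose in MRC+L against PBS (log2 fold change 0.31 ± 0.11, adjusted p = 0.0241), while mt-Nd3 (-0.97 ± 0.36, adjusted p = 0.0333), mt-Nd5 (-0.39 ± 0.16, adjusted p = 0.0474) and mt-Nd6 (-0.98 ± 0.33, adjusted p = 0.0234) fell. On that scale 65.5% of all genes were called. The 3 lower genes leaned on PBS replicate 2, where they took 0.207%, 13.2% and 5.84% of the mRNA counts against 0.0694% and 0.0836%, 8.97% and 8.88%, and 2.33% and 1.92% in the other PBS libraries. In a fit without that library, chosen after seeing the data, mt-Nd3 (-0.32, adjusted p = 0.111) and mt-Nd5 (-0.18, adjusted p = 0.107) were not called, mt-Nd6 (-0.32, adjusted p = 0.0173), mt-Nd1 (-0.28, adjusted p = 0.0128) and mt-Cytb (-0.24, adjusted p = 0.0212) fell and mt-Co1 rose (0.23, adjusted p = 0.014), beside 70.6% of all genes. A gene that falls by less than the sum comes out higher on this scale, and mt-Co1, a large part of that sum, had the smallest fall of the 12 on the scale of all RNA. In MRC against PBS edgeR called 0 of 12 mRNAs on that scale, beside 50.0% of all genes, with 0 at an unadjusted p under 0.05, and without PBS replicate 2 mt-Cytb fell (-0.22, adjusted p = 0.0454), beside 58.3% of all genes.

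mt-Nd6, whose gene lies on the other strand, was also set against the other 12 mRNAs. Reads were counted without their strand, so its counts can include transcripts of the opposite strand, and the ratio does not separate the strands. It made 2.39, 6.20 and 1.96 counts per 100 of theirs in PBS, 2.33, 2.15 and 2.20 in MRC, and 1.75, 1.70 and 1.76 in MRC+L. MRC+L lay below both other groups, and MRC overlapped PBS. The log2 difference was -0.82 for MRC+L against PBS and -0.36 for MRC+L against MRC (exact permutation p = 0.10 each, adjusted 0.24), and without PBS replicate 2 the first was -0.32. In MRC against PBS it was -0.47 (exact permutation p = 0.70), and 0.04 without PBS replicate 2.

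**Figure D4:**
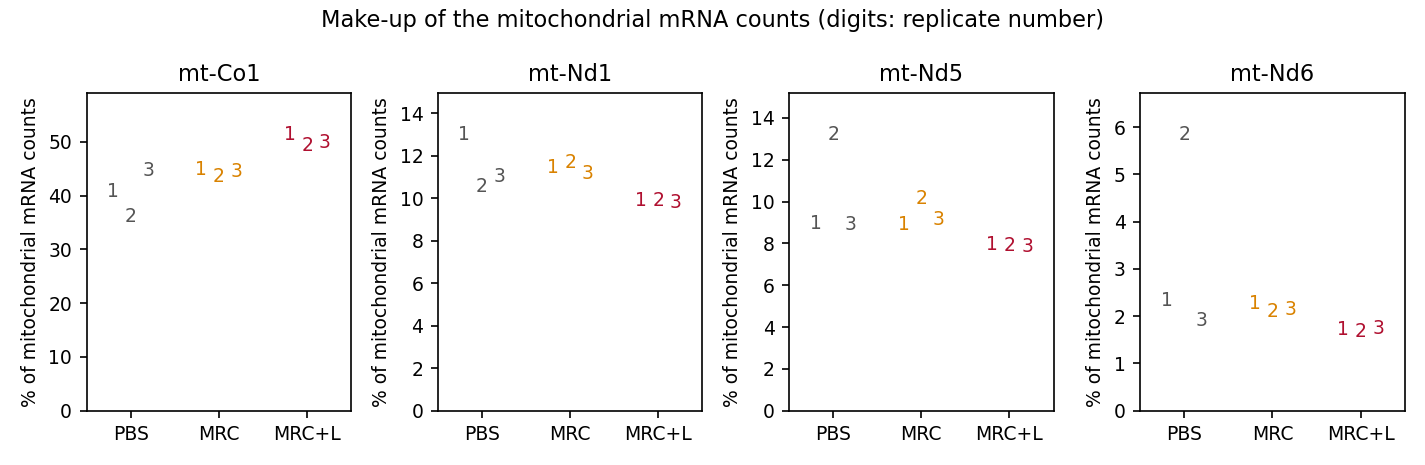
Share of the mitochondrial mRNA counts, in percent, taken by mt-Co1, mt-Nd1, mt-Nd5 and mt-Nd6 in each library, printed as its replicate number; axes start at 0. mt-Co1 is highest in the MRC+L libraries, at 49.3% to 51.3%, and PBS replicate 2 stands high for mt-Nd5 and mt-Nd6.

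PBS replicate 2 differed from the other PBS libraries gene by gene. Its level over their mean was between 0.97 and 1.06 for mt-Nd1, mt-Nd2, mt-Co1 and mt-Cytb. It was 1.69 for mt-Nd5, 1.55 for mt-Nd4, 2.61 for mt-Nd4l, 3.11 for mt-Nd3 and 3.12 for mt-Nd6. From mt-Co2 to mt-Nd6 along the genome, a stretch chosen after the values were seen, all 12 tested genes lay higher in PBS replicate 2 than in the other PBS libraries, by 1.55 to 4.34 times, and the largest values were those of the tRNAs mt-Tl2, mt-Th and mt-Tr. The rRNAs split, at 1.84 for mt-Rnr1 and 0.498 for mt-Rnr2.

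**Figure D5:**
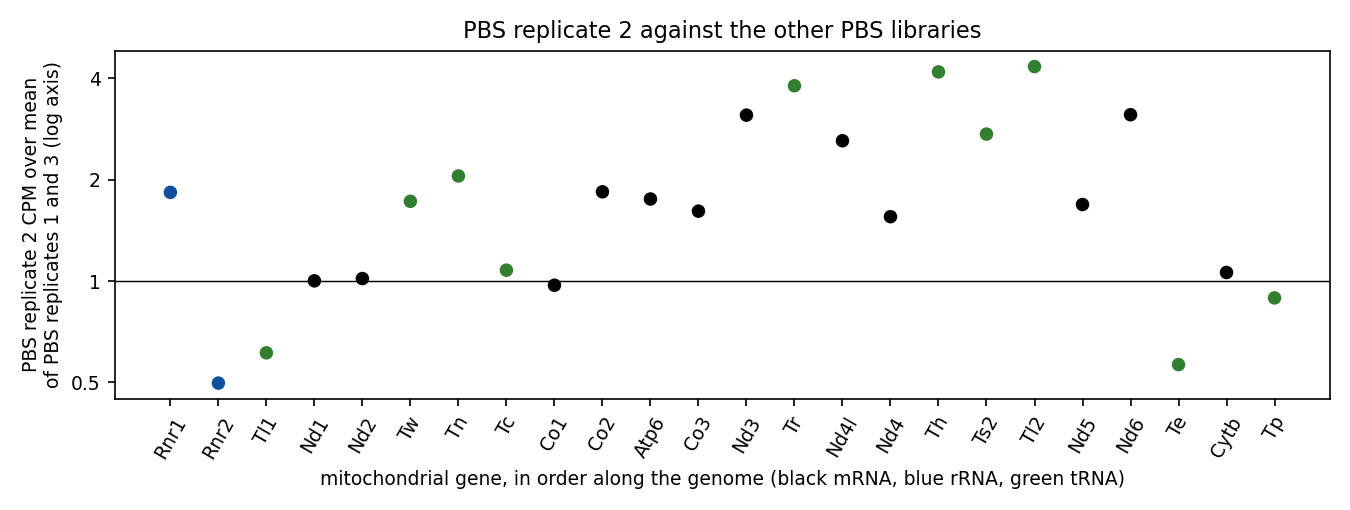
Level of each tested mitochondrial gene in PBS replicate 2 over the mean of PBS replicates 1 and 3 (log axis), in gene order. Values run from 0.498 at mt-Rnr2 to 4.34 at mt-Tl2, and the mRNAs from mt-Nd1 to mt-Co1 and mt-Cytb lie near 1.

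Nuclear genes of mitochondrial transcription did not move as a group. Of 10 tested genes 1 rose and 1 fell in MRC, and 2 rose and 2 fell in MRC+L against PBS, shares under those of all genes tested (17.8% and 19.8% in MRC, 21.8% and 24.5% in MRC+L). Tfb2m, the factor that opens the promoter, rose from 34.4 ± 4.13 CPM in PBS to 56.8 ± 4.64 in MRC (log2 fold change 0.72, adjusted p = 0.000952) and 63.3 ± 2.11 in MRC+L (0.88, adjusted p = 0.000227). Tfam, which bends and packages the DNA, fell from 71.3 ± 12.4 to 52.9 ± 6.73 (-0.43, adjusted p = 0.0341) and 53.0 ± 1.09 CPM (-0.43, adjusted p = 0.0296), calls that held in 4 and 6 of 9 fits with 1 library left out. Polrmt, the polymerase, stood at 47.4 ± 3.53, 50.8 ± 6.25 and 49.5 ± 2.68 CPM, and Tefm, its elongation factor, at 11.6 ± 2.13, 10.1 ± 1.29 and 9.66 ± 0.375 CPM, with no call. Mterf3 (0.45, adjusted p = 0.0119) rose and Mterf2 (-0.77, adjusted p = 0.0259) fell in MRC+L, both members of the family of mitochondrial termination factors. The call of Mterf2 was lost without PBS replicate 2 (-0.52, adjusted p = 0.054).

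Among 27 genes of mitochondrial RNA processing, stability and decay, 8 rose (29.6%) and 3 fell (11.1%) in MRC, and 6 rose (22.2%) and 4 fell (14.8%) in MRC+L against PBS. Among all genes 17.8% rose in MRC and 21.8% in MRC+L, so the MRC+L share of higher genes was that of the background. Pnpt1, a ribonuclease that degrades mitochondrial RNA, fell from 149.9 ± 17.2 CPM to 69.3 ± 4.48 in MRC (log2 fold change -1.11, adjusted p = 5.2e-05) and 73.5 ± 0.325 in MRC+L (-1.03, adjusted p = 5.9e-05). Elac2, which cuts the 3′ side of tRNAs from the precursor, rose by 0.75 (adjusted p = 0.000386) and 0.79 (adjusted p = 0.000221) on the log2 scale. The parts of the mitochondrial RNase P, which cuts the 5′ side, did not move together. Trmt10c, its methyltransferase subunit, rose by 0.87 (adjusted p = 0.000297) and 0.91 (adjusted p = 0.000165). Its partner Hsd17b10 fell (-0.62, adjusted p = 0.0218, and -0.90, adjusted p = 0.00284), and the nuclease Prorp, listed as 1110008L16Rik, was not called (0.28, adjusted p = 0.149, and 0.27, adjusted p = 0.148). The last pair of genes was added after their values were seen. Without PBS replicate 2 Hsd17b10 stood at -0.34 and -0.61 and was called, and 1110008L16Rik was called as higher (0.40, adjusted p = 0.0119, and 0.39, adjusted p = 0.0123). Lrpprc, which holds mRNAs stable, had 113.7 ± 4.77, 120.3 ± 4.81 and 130.8 ± 1.45 CPM, and its partner Slirp 2.63 ± 1.60, 2.06 ± 0.397 and 1.34 ± 0.305 CPM, neither called. Fastkd1 rose in MRC (0.31, adjusted p = 0.0428), a call that held in 1 of 9 fits with 1 library left out, and Tfb1m, which methylates the small rRNA, fell in MRC+L (-0.52, adjusted p = 0.0379).

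Genes that copy and maintain mitochondrial DNA were mostly not called: 2 of 13 rose in MRC (15.4%) and 3 in MRC+L (23.1%), near the background, and 0 fell. Twnk, the replicative helicase, rose from 61.5 ± 0.340 CPM to 89.6 ± 3.84 (log2 fold change 0.54, adjusted p = 0.00179) and 88.9 ± 7.93 (0.53, adjusted p = 0.00163), and Exog, a nuclease, rose by 0.49 (adjusted p = 0.00763) and 0.44 (adjusted p = 0.011). Lig3, a DNA ligase, rose in MRC+L (0.71, adjusted p = 0.0493), a call that held in 2 of 9 fits with 1 library left out. Of 9 regulators of mitochondrial number 8 were tested, and 2 rose and 2 fell in MRC (25% each), 2 rose (25%) and 3 fell (37.5%) in MRC+L. Among all genes tested 17.8% rose and 19.8% fell in MRC, and 21.8% rose and 24.5% fell in MRC+L. With so few genes these shares do not show a change of the group. Pprc1, a coactivator of nuclear genes for mitochondria, rose from 104.0 ± 27.0 to 212.7 ± 23.0 and 227.1 ± 3.66 CPM (1.03, adjusted p = 0.00147, and 1.13, adjusted p = 0.0007), and Nrf1, a transcription factor for such genes, rose by 0.46 (adjusted p = 0.00301) and 0.53 (adjusted p = 0.00104). Tfeb, which controls lysosome genes, fell from 17.7 ± 4.58 to 9.07 ± 0.989 and 7.69 ± 0.885 CPM (-0.96, adjusted p = 0.00428, and -1.20, adjusted p = 0.00105). Ppargc1a, the related coactivator, was at 0 in PBS and had group means of at most 0.0633 CPM, under the level that a count of 0 allows.

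Many nuclear partners of the mitochondrial subunits were lower in MRC+L, and fewer in MRC. Of 71 nuclear subunits of complexes I, III, IV and V, 22 fell (31.0%) and 0 rose in MRC, and 47 fell (66.2%) and 0 rose in MRC+L against PBS, beside 19.8% and 24.5% lower among all genes tested. Their median log2 fold changes were -0.57 and -0.75. By complex, 9 and 23 of 36 fell for complex I, 4 and 8 of 9 for complex III, 2 and 5 of 11 for complex IV, and 7 and 11 of 15 for complex V. Without PBS replicate 2 the medians were -0.21 and -0.36, with 27 (38%) and 45 (63.4%) lower and 2 higher in each. In those fits 26% and 28.3% of all genes were lower. The MRC count was 9 (12.7%) without MRC replicate 1 or 2, below the 13.6% and 14.7% of all genes in those fits, 13 (18.3%) without MRC replicate 3, beside 15.3%, and 55 (77.5%) without PBS replicate 3, beside 23.5%. The MRC+L count was 23, 22 and 28 (32.4%, 31.0% and 39.4%) without MRC+L replicates 1, 2 and 3, beside 19.3%, 17.9% and 18.3%.

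Ndufv3, of complex I, fell from 36.5 ± 13.3 CPM to 15.4 ± 2.55 in MRC (adjusted p = 0.00246) and 15.1 ± 1.60 in MRC+L (adjusted p = 0.00181). Ndufs1, the largest complex I subunit, fell from 165.2 ± 7.64 to 123.5 ± 4.33 (adjusted p = 0.00473) and 119.4 ± 2.97 (adjusted p = 0.00205). Uqcrc1, a core protein of complex III, fell from 415.1 ± 85.7 to 283.4 ± 4.99 (adjusted p = 0.0112) and 247.6 ± 6.08 CPM (adjusted p = 0.00182). All 3 genes kept both calls with any 1 of the 9 libraries left out. Atp5a1, the ATP synthase alpha subunit, fell from 1199 ± 102.0 to 868 ± 14.1 (adjusted p = 0.00544) and 765.8 ± 21.9 CPM (adjusted p = 0.00068), and Cox7a2, of complex IV, fell from 56.3 ± 26.2 to 27.6 ± 3.43 (adjusted p = 0.0131) and 23.7 ± 2.21 CPM (adjusted p = 0.00407). The log2 fold changes of Cox7a2, -1.03 and -1.25, shrank to -0.58 and -0.81 without PBS replicate 2, both called. Its MRC call held in 7 of 9 fits with 1 library left out. Further genes called in both comparisons were Uqcrh (log2 fold change -1.01 in MRC and -1.27 in MRC+L), Uqcrfs1 (-0.71 and -0.88), Ndufa4 (-0.94 and -1.17), Atp5c1 (-0.88 and -1.11) and Atp5k (-1.60 and -1.81). Their changes were smaller without PBS replicate 2: -0.57 and -0.83 for Uqcrh, -0.39 and -0.55 for Uqcrfs1, -0.39 and -0.61 for Ndufa4, -0.60 and -0.83 for Atp5c1 and -0.93 and -1.13 for Atp5k, all still called. The MRC call of Ndufa4 held in 3 of 9 fits with 1 library left out, that of Uqcrfs1 in 6 and that of Uqcrh in 7. With light against MRC, 0 of the 71 were called. In the fit to the 6 exposed libraries 6 fell (8.45%), beside 1.91% of all genes. These included Atp5c1 (log2 fold change -0.23, adjusted p = 0.0354) and Ndufv1 (-0.26, adjusted p = 0.0408). The genes with the smallest p for light in each nuclear list had an adjusted p of at least 0.988 in the fit to all 9 libraries. Among them were Mterf1a, Rrm2b, Tk2, Yy1, Aars2, Mrpl39, Mrps33, Cyc1, Cox4i1, Cox6b1 and Ndufc1.

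The proteins that work with the mitochondrial rRNAs and tRNAs gave a mixed picture. Of 77 tested mitochondrial ribosomal proteins 14 fell (18.2%) and 2 rose in MRC, and 20 fell (26.0%) and 2 rose in MRC+L, with medians of -0.26 and -0.41. These shares of lower genes are near the 19.8% and 24.5% of all genes tested. Mrpl18 fell from 61.6 ± 23.7 to 28.8 ± 2.26 and 25.6 ± 2.50 CPM (adjusted p = 0.004 and 0.00147). Its log2 fold changes of -1.10 and -1.27 shrank to -0.75 and -0.915 without PBS replicate 2, both called. Those of Mrpl30, at -0.82 and -1.12, shrank to -0.56 and -0.85, both called. Mrpl30 fell from 92.8 ± 27.3 to 52.4 ± 5.50 and 42.7 ± 0.606 CPM (adjusted p = 0.00553 and 0.000825), while Mrps18b rose from 44.3 ± 7.38 to 71.1 ± 2.32 and 66.2 ± 1.29 CPM (adjusted p = 0.00179 and 0.00356). Of 22 mitochondrial tRNA synthetases, which charge the tRNAs, 3 rose and 2 fell in MRC, and 3 rose and 3 fell in MRC+L, all shares of at most 13.6% and under the background. Wars2, for tryptophan, rose from 15.3 ± 1.45 to 33.0 ± 1.61 and 33.2 ± 1.96 CPM (adjusted p = 6.7e-05 and 4.7e-05). Mars2, for methionine, rose from 8.41 ± 3.00 to 19.8 ± 3.03 and 21.7 ± 1.84 CPM (adjusted p = 0.00321 and 0.00145).

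The annotated copies on chromosome 1 shown above were counted at low levels, with a sum over 6 copies of 30.3 to 68.0 CPM in PBS, 16.6 to 30.9 in MRC and 16.1 to 18.3 in MRC+L. The 6 leave out Gm10222, the copy of mt-Nd4l. Of the 6, 1 fell in MRC (16.7%) and 4 fell in MRC+L (66.7%) against PBS. Among all genes tested 19.8% and 24.5% fell. Gm28437, the copy of mt-Co3, stood at 14.8 ± 8.29, 6.45 ± 2.22 and 5.02 ± 0.514 CPM, above mt-Co3 itself at 3.29 ± 0.997, 1.93 ± 0.864 and 1.20 ± 0.245 CPM, although mt-Co3 and the copy are 784 and 783 bases long. Gm28661 stood at 3.97 ± 1.75, 2.05 ± 0.890 and 1.44 ± 0.415 CPM beside mt-Co2, which is identical to it, at 4.61 ± 1.78, 2.64 ± 1.47 and 1.71 ± 0.309 CPM. How reads were divided between a gene and its copy is not given in the sources used here, so values of both are uncertain. Without the 8 mRNAs in or next to the copied stretch, the mitochondrial mRNA share was lower than in PBS by 0.441 percentage points in MRC and 0.665 in MRC+L. With them the differences were 0.705 and 1.01. The share without those 8 is smaller in PBS too, so these values do not compare relative changes.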

How the data were processed

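Libraries were made from Trizol-extracted total RNA of 4T1 cells (PBS, MRC and MRC+L, 3 each) with the TruSeq RNA kit of Illumina, per the labels. The deposited tables hold raw counts per gene, which the authors made with featureCounts 2.0.1 over exons of the Ensembl release 104 annotation of GRCm39, with paired ends and with no option for strand, multiple places or multiple genes, per the file headers. The aligner is not given in the sources used here. Symbols came from GENCODE M21 by gene ID (52135 of 55416, 94.1%, and all 37 mitochondrial genes).

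Genes were kept by the edgeR filter (minimum count 10, minimum total 15), which left 13439. The quasi-likelihood test of edgeR 4.0.16 in R 4.3.3, with TMM factors, 1 mean per group, all 9 libraries and a prior count of 0.125, was used with Benjamini-Hochberg adjustment over all genes tested and called at an adjusted p under 0.05. MRC+L was also fitted against MRC with those 6 libraries alone (12955 genes). Levels are counts per total scaled by TMM (CPM). Shares and ratios of summed counts were compared by exact two-sided permutation. The index of short against long genes is the median deviation from the mean log2(CPM + 1) in the shortest 10% of tested genes minus that in the longest 10%. Alternatives included DESeq2 1.42.0. edgeR was tested on simulated data. Tables and plots used Python 3.11.15, pandas 2.3.3, scipy 1.17.1 and matplotlib 3.10.9. Library totals of 15019765 to 20044166 counts let a count of 0 stand for up to 0.150 to 0.200 CPM (3 counts).

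The members and gene lists were chosen with earlier results of these data known. Values in every library are given for all mRNAs and rRNAs and for called tRNAs. Of each nuclear list up to 3 genes with the smallest adjusted p in MRC against PBS and up to 2 in MRC+L against MRC were eligible, with 8 further genes fixed by name. Some eligible genes are not reported here.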

Additional observations from a re-analysis of the deposited data

How the results depend on the processing

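The mRNA count for MRC against PBS (8 lower) was 10 by DESeq2, 8 with RLE size factors, 8 without the filter, 8 with nuclear genes only for library size, 6 with the trend on gene length removed and 0 with libraries scaled to the mitochondrial mRNAs, where it is low by construction. In those fits, in the same order, 22.2%, 19.7%, 9.76%, 19.8%, 23.4% and 7.44% of all genes fell. For MRC+L against PBS (12 lower) the scaling to the mitochondrial mRNAs gave 3, beside 6.45% of all genes. For MRC+L against MRC (0 lower) the count was 1 by DESeq2, 1 without the filter and 6 with 6 libraries. Beside these, 0.0967%, 0.028% and 1.91% of all genes fell. The rRNA count for MRC+L against PBS (1 higher) was 2 without the filter and 2 with libraries scaled to the mitochondrial mRNAs. That scaling without PBS replicate 2, added after seeing the data, gave 1 lower mRNA for MRC against PBS, 3 for MRC+L against PBS and 1 for MRC+L against MRC, and 2 higher rRNAs for MRC+L against PBS. In the same order of comparisons, 9.49%, 7.47% and 0.0946% of all genes fell there. With the length trend removed the median log2 fold change of the mRNAs for MRC+L against PBS was -0.82. Without the mRNAs copied on chromosome 1 the differences in mRNA share were -0.441 and -0.665 percentage points for MRC and MRC+L against PBS. They are differences of a smaller share, not relative changes.

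With the replicate number as a block, 3 mRNAs fell in MRC and 10 in MRC+L against PBS, beside 16.5% and 21.3% of all genes. The 9 pairs of libraries with the same number had correlations of their deviations from the group means of -0.185 to 0.0385. Of these, 0 lay over 0.1. Pairs with different numbers ran from -0.126 to 0.204. Each deviation is from a mean of 3 libraries, so the correlations do not decide whether libraries share more than a number.

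Leaving out 1 library at a time gave a median log2 fold change of the mRNAs of -0.93 to -0.42 for MRC against PBS. The value of -0.42 was without PBS replicate 2. Those fits gave 1 to 10 mRNAs lower, beside 13.6% to 26% of all genes. For MRC+L against MRC 0 to 5 mRNAs were lower, with 5 without PBS replicate 2, and for MRC+L against PBS 9 to 12. The log2 difference in the ratio of mt-Nd6 to the other mRNAs for MRC against PBS ran from -0.79 to 0.0406, reversed without PBS replicate 2. For MRC+L against MRC the rRNA to mRNA ratio ran from -0.38 to 0.0877, reversed without MRC replicate 1, and the tRNA to mRNA ratio from -0.0084 to 0.12, reversed without MRC replicate 2. The cause was not tested. Low counts limit mt-Co2, mt-Co3, mt-Nd4l and most tRNAs, and counts of the copied genes depend on how reads with several places were handled.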
